A study of Mus musculus with 5 samples.

Results

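The 207 genes described here are mouse zinc finger protein genes, with a symbol made of Zfp and digits, whose coding sequence (CDS) carried a listed Ago-binding site in at least 2 of 5 liver libraries. Members were chosen by the region of their entries in those libraries, so that a CDS site in 2 or more libraries is a condition of entry and no result. They stood among 11515 genes of any name that met the same condition, out of 14348 genes with an entry in a CDS or an untranslated region (UTR). Of 294 Zfp genes with such an entry, 74 had CDS entries in 1 library and 13 had entries in UTRs only.

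Most of these genes encode C2H2 zinc finger proteins, in which a pair of cysteines and a pair of histidines hold a zinc ion and the fingers follow each other in a tandem array joined by a short conserved linker. Many also carry a KRAB domain, which recruits the corepressor Trim28 and silences transposable elements and imprinted regions. Because the cysteine, histidine and linker residues recur in every finger, the coding sequence of such a gene holds many near copies of one short stretch.

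Ago HITS-CLIP crosslinks Argonaute proteins to the RNA they bind with UV light, recovers them with antibodies and sequences the bound fragments, which gives both the miRNAs and clusters of mRNA reads. Whole livers of C57BL/6 mice, with no treatment named in the labels, gave 1 library for each of 5 stages, which are the embryonic days e12.5, e15.5 and e18.5, postnatal day 7 (P7) and the adult. Per the labels, the embryonic libraries used Ago2 antibodies and the P7 and adult libraries used Ago2 and Ago1 antibodies, so that the Ago1 antibody and postnatal age cannot be told apart. The study's methods name biological replicates for the Ago2 libraries and its supplement names a second e18.5 library, but the labels used here give 1 sample per stage, and that second library is not analysed here as a sample of its own. Each embryonic table holds 2 lists, and neither labels nor tables say what sets them apart. The lists were pooled, so no difference below was tested and none has a replicate error. Each table entry named a cluster, a miRNA whose seed matched inside it and the highest read number of that cluster, called its reads below, and the lowest value listed was 5. Over all mRNA clusters these reads summed to 10451583 at e12.5 and to between 3351505 and 4901259 in the other libraries, so e12.5 could list clusters at a lower relative level. Levels are given as reads per 1000000 reads in mRNA clusters (RPM), and 5 values in a row always run from e12.5 over e15.5, e18.5 and P7 to adult. Intervals are Wilson 95% intervals and cover counting error only. The linker carried a short barcode, but whether it was used to remove PCR copies is not given in the sources used here, so reads may not be independent molecules.

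Liver identity held in the marker lists. All 10 hepatocyte markers were listed at e18.5, P7 and adult and 9 of 10 at e12.5 and e15.5, and their summed level was 2802, 6787, 20563, 23834 and 45459 RPM. Of 12 erythroid markers 10 were listed at each stage up to P7 and 6 in the adult, with a summed level of 28790, 48024, 30145, 9576 and 1312 RPM, and Hbb-b1 and Epb42 were listed in none. The 4 endothelial markers, all listed in every library, went from 50.04 to 1054 RPM. From e12.5 to adult, 5 of 6 white blood cell markers went from 52.4 to 404 RPM, with 626 at e18.5. The 4 stellate markers went from 105 to 394 RPM, with 448 at P7. The 4 biliary markers went from 3.44 to 37.6 RPM, with 62.2 at e18.5. The part of these cell types in the stage differences of the Zfp genes was not tested, and in whole liver fewer cells of a type, less mRNA per cell and a change of Ago binding cannot be told apart.

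Mature miRNAs of seed families described below are shown first, because the letters they match return in the results. miR-181b-5p, miR-188-3p, miR-107-5p, miR-382-3p and miR-16-1-3p stand for families among the 10 with CDS sites in most members. miR-27b-3p and miR-16-5p stand for much read families, the second of them listed in few members. The miRNAs, from RefSeq (GRCm38.p6), are written 5′ to 3′ with the seed, bases 2 to 8, in capitals. The miR-181 and miR-23 families each hold several miRNAs with one seed.
miR-181b-5p: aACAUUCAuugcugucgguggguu
miR-188-3p: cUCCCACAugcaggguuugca
miR-107-5p: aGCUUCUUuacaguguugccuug
miR-382-3p: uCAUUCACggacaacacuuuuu
miR-16-1-3p: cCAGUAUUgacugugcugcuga
miR-27b-3p: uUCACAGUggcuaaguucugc
miR-16-5p: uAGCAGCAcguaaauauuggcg

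The miR-181 family had listed CDS sites in 53 members (25.6%), against 1250 of all 11515 genes (10.9%). With listed sites of at least 7 bases the count was 34 members (16.4%), against 565 of all genes (4.91%). It made 12.95 of every 1000 distinct CDS sites of the members and 2.19 of every 1000 of all genes, a ratio of 5.93. From e12.5 to adult, 32, 21, 12, 22 and 6 members had a listed miR-181 site. The family took 0.558%, 0.862%, 0.854%, 0.422% and 0.111% of all miRNA reads in the same libraries. Both the number of members and the share of miRNA reads were lowest in the adult. They did not otherwise run together, as e18.5 had 12 members at 0.854% and P7 had 22 at 0.422%. The number also depends on how much a library listed, since 181, 131, 109, 167 and 115 members had any CDS cluster. Counts per library over all genes were not made for this family.

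Among the members with 10 or more fingers, 34 of 113 (30.1%) had a miR-181 site, and among those with fewer fingers 19 of 94 (20.2%). Zfp26, with 22 fingers, had 8 distinct miR-181 sites, Zfp266 had 6 and Zfp961 had 5. Zfp809, a KRAB protein that silences murine retroviral DNA, and Zfp148, a transcription factor of GC-rich promoters, had 3 each. In all, 18 members had more than 1 site of this family.

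The miR-181 sites lay at nearly fixed places of the zinc finger repeat. With each repeat counted as 84 bases from the start of its first cysteine codon, 62 of 89 placed miR-181 sites (69.7%) fell in a repeat. Of these, 32 began at base 6, where the seed match covers the codon before the second cysteine and the cysteine codon itself, and 28 began at base 81, which is the codon before the first cysteine of the next finger together with that cysteine codon. The stretches below, from 5 members with a miR-181 site at base 6 listed in 2 libraries, are 30 bases of coding sequence in transcript direction (GRCm38), with the letters of the seed match in capitals. They are shown because the same letters recur in fingers of different genes.
Zfp41, chr15:75618459-75618488, plus strand: tatgagtgtggTGAATGTggacggatcttt
Zfp869, chr8:69706935-69706964, minus strand: tatgagtgtaaaGAATGTgggaaagctttt
Zfp110, chr7:12849488-12849517, plus strand: tgccgatgtagTGAATGTggtaaactgttc
Zfp62, chr11:49217385-49217414, plus strand: tatgggtgtgaTGAATGTgaaaaggcatac
Zfp667, chr7:6305574-6305603, plus strand: attgcatgcaagGAATGTggaaagatgttt

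Summed over libraries, the clusters with these sites held 332 reads in Zfp41, 144 in Zfp869, 116 in Zfp110, 64 in Zfp62 and 43 in Zfp667. The read number belongs to the cluster and not to one miRNA, since every listed miRNA with a match in a cluster carries the same value. A median of 4 miRNAs was listed per member CDS cluster in a library, and the highest number was 32.

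The coding sequences themselves held more of these letters than other genes did. The 6-base match to the miR-181 seed, GAATGT, occurred 647 times on the coding strand of the members, or 14.98 times per 10 kb, against 3.06 times per 10 kb in the coding sequence of all genes, a ratio of 4.90. Of the 647 matches, 13.9% were listed, against 22.7% of the matches in all genes. In the 3′UTRs, where the repeat is absent, the miR-181 family made 6.26 of 1000 distinct sites of the members and 2.60 of 1000 of all genes, a ratio of 2.40.

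Other families showed the same fixed placement. miR-188-3p had CDS sites in 55 members (26.6%, against 13.9% of all genes), the most of any seed family, and 45 of its 69 sites began at base 10, inside the codon of the second cysteine. This miRNA was scarce in every library, with a best abundance rank of 310 and no more than 0.00244% of the miRNA reads. The miR-145 family had sites in 45 members (21.7%, against 19.96%), and all 42 of its sites inside a repeat began at base 63, the first base of the linker. miR-23 family sites were listed in 38 members (18.4%, against 11.1%), with 13 at base 8 and 10 at base 83, offset by 2 bases from the miR-181 sites.

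**Figure D1:**
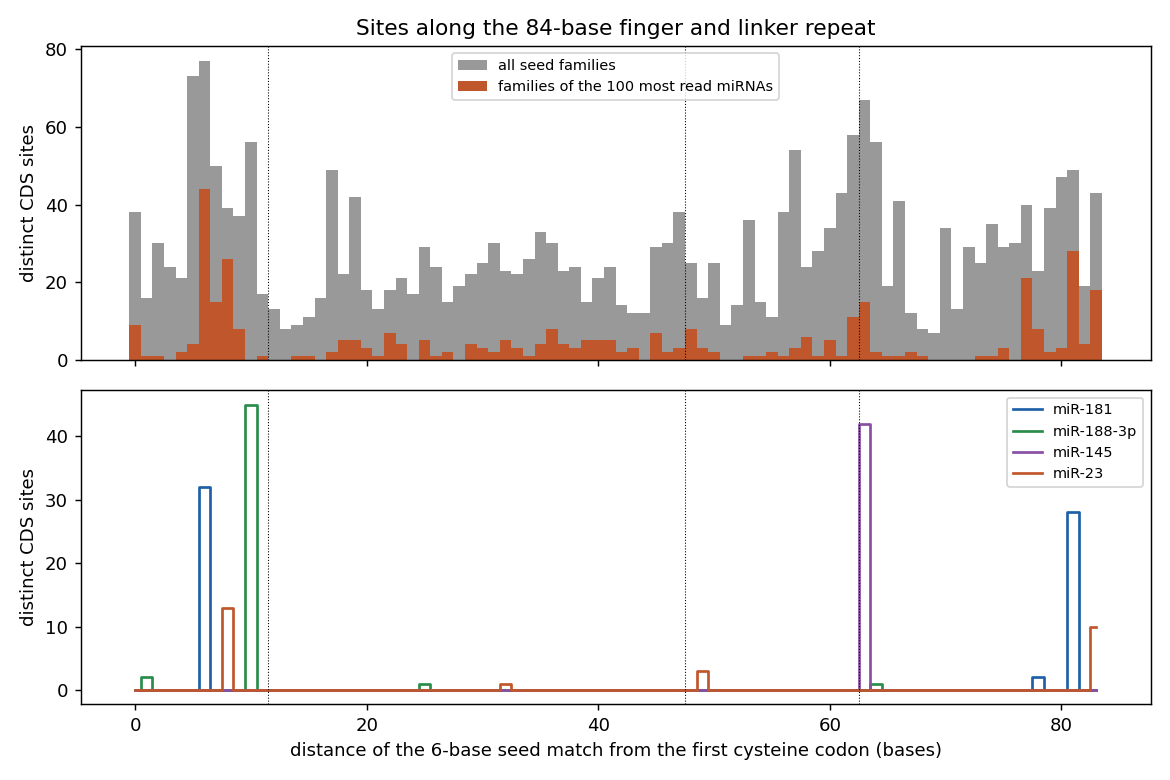
Number of distinct member CDS sites (vertical axes) by distance in bases of the 6-base seed match from the first cysteine codon of the 84-base repeat (horizontal axis), for all seed families and those of the 100 most read miRNAs (upper panel) and for 4 families (lower panel). Dotted lines mark the ends of the cysteine pair, of the stretch up to the first histidine and of the histidine pair. The miR-181 sites stand at bases 6 and 81, the miR-188-3p sites at base 10 and the miR-145 sites at base 63.

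The miR-107-5p family had CDS sites in 46 members (22.2%, against 19.6% of all genes) and miR-382-3p in 41 (19.8%, against 9.36%). miR-16-1-3p had them in 38 (18.4%, against 7.92%) and miR-6975-3p in 37 (17.9%, against 11.01%). Smaller shares of members than of all genes had sites of miR-7033-5p (39 members, 18.8%, against 22.1%) and miR-673-5p (37 members, 17.9%, against 22.6%). Some of these families were listed in few libraries, because miR-6975-3p entries in members came from e12.5 alone and miR-7033-5p entries from P7 and the adult. Per 1000 distinct sites, miR-16-1-3p had a ratio to all genes of 4.75 and miR-382-3p of 4.51, whereas miR-7033-5p had 1.31 and miR-673-5p 1.18.

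Among families with a miRNA in the 100 most read of a library, miR-181 and miR-23 were followed by miR-673-5p (37 members), miR-27 (36), miR-103 (27) and miR-376b-3p (24 members with such an entry). Like miR-673-5p, miR-27 (17.4%, against 22.3% of all genes) and miR-103 (13.04%, against 30.5%) had sites in a smaller share of members. With any entry counted, miR-376b-3p had sites in 29 members (14.01%, against 11.8%). miR-122-5p, the most abundant miRNA of hepatocytes, had CDS sites in 22 members (10.6%, against 15.3% of all genes), but per 1000 distinct sites it made 3.31 in the members and 3.10 in all genes. The miR-16 family, which took 14.9% of the miRNA reads in the adult, had CDS sites in 20 members (9.66%), against 34.0% of all genes. Its sites made 3.74 of 1000 in the members and 8.56 of 1000 in all genes. Both ranked among the 6 most read miRNAs of every library. miR-140-3p was listed for 20 members (9.66%, against 12.97% of all genes). Of these, 17 had it in a library where its family was among the 100 most read. miR-144-3p was listed for 16 members (7.73%, against 9.27%).

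**Figure D2:**
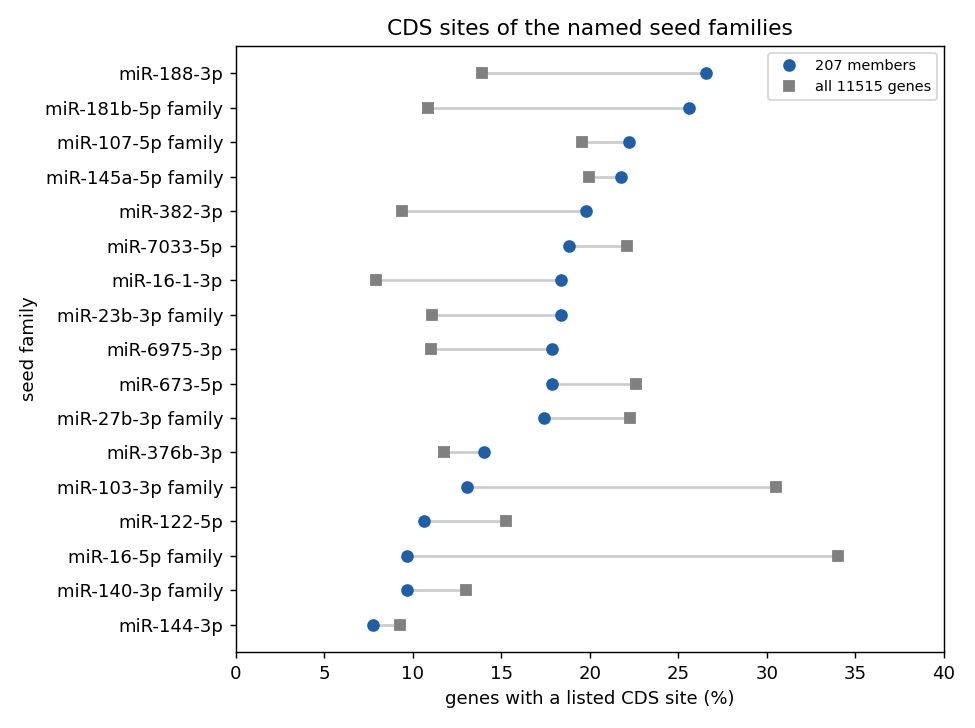
Share of genes (horizontal axis, percent) with a listed CDS site of each named seed family (vertical axis), for the 207 members (circles) and for all 11515 genes with CDS entries in 2 or more libraries (squares). The members lie to the right of all genes for miR-181 and miR-188-3p and to the left for the miR-16 and miR-103 families.

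Relatives of these genes were set beside them. A miR-181 CDS site was listed in 3 of 14 Zscan and Zkscan genes (21.4%), which encode C2H2 arrays with a SCAN domain, in 1 of 38 Zbtb genes (2.63%) and in 0 of 17 genes of the Klf family and Sp1 to Sp4. Zbtb and Klf proteins carry few fingers. Other families did not set the relatives apart in the same way, as miR-188-3p was listed in 3 of 14 Zscan and Zkscan genes (21.4%), 5 of 38 Zbtb genes (13.2%) and 4 of 17 Klf and Sp genes (23.5%), beside 26.6% of the members. miR-145 was listed in 4 (28.6%), 5 (13.2%) and 2 (11.8%) of them, beside 21.7% of the members.

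Over all families, the members' CDS sites were not gathered in the repeats. Of 6848 distinct sites placed on a GENCODE vM21 coding sequence, 2370 (34.6%, Wilson 95% interval 33.5 to 35.7, counting error only) began in a repeat, while repeats made 34.5% of the bases when each gene was weighted by its number of sites. For all 207 coding sequences together, 432 kb, repeats made 41.5% of the bases. Of the 192 members with at least 1 finger, 98 had a higher share of sites than of bases in repeats and 94 a lower one. From e12.5 to adult the share of sites was 35.4%, 43.7%, 33.9%, 31.1% and 36.3%, against 35.2%, 37.3%, 31.5%, 33.03% and 31.4% of bases. Only at e15.5 and in the adult did the interval of the site share (40.6 to 46.8 and 33.1 to 39.7) lie above the share of bases.

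Within the repeat the sites were uneven. The stretch from the first to the second cysteine is 12 of the 84 bases (14.3%) and held 20.2% of the sites in repeats. The linker, taken as the last 21 bases of each repeat whether or not another finger followed, held 28.1%. The stretch between the second cysteine and the first histidine, which contains the residues that read DNA, is 36 bases (42.9%) and held 33.6%. The stretch from the first to the second histidine is 15 bases (17.9%) and held 18.1%. Sites of 1 gene and sites in near-identical fingers are not independent, so these shares were not tested.

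Members differed widely in their number of sites and miRNAs. Over the 5 libraries a median of 26 miRNAs was listed for the CDS of a member, and the highest number, 246, was that of Zfp217. Joined over libraries where they overlapped, the CDS clusters numbered 1559, with a median of 5 per member and a range from 1 to 45. The 51 members with 10 or more clusters held 866 of them, and 35 members had 1 or 2. Most clusters were listed in 1 library only: 1262 (80.9%) were in 1 library, 224 in 2, 46 in 3, 22 in 4 and 5 in all 5. This was not counted over all genes. The 2 lists of the e12.5 library also shared few clusters, 33 of 111 and 593, so these numbers do not measure binding at 1 stage alone. Of the members, 52 (25.1%) had CDS entries in all 5 libraries, against 43.5% of all genes, and 65 (31.4%) in just 2, against 15.1%.

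Zfp292, a long protein with few fingers that is known as a tumour suppressor, had the most CDS clusters, 45 on a coding sequence of 8094 bases. Zfp217, part of repressor complexes with CoREST and an oncogene in human cancer, had 32 on 3123 bases. Zfp644, a partner of the G9a histone methyltransferase complex, also had 32, although each of its CDS entries named a second gene as well, and Zfp106, an RNA-binding protein with no finger of the motif searched, had 31. Zfp445, which protects imprinted regions from loss of methylation, had 28, Zfp592 had 26, Zfp407 had 25 and Zfp26 had 24. Finger number and cluster number went apart in this list, which runs from 0 fingers (Zfp106) to 22 (Zfp26).

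Members with many fingers had fewer clusters for their length. The 113 members with 10 or more fingers had 2.86 distinct CDS clusters per kb of coding sequence, the 49 with 5 to 9 fingers had 4.44, the 30 with 1 to 4 fingers had 4.85 and the 15 with none had 4.83. Across the 207 genes, which share these 5 libraries, the rank correlation of clusters per kb with finger number was -0.42.

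Reads followed another order. In CDS reads, Zfp217 had 164, 158, 172, 147 and 16.1 RPM. It was steady up to P7 and lower in the adult alone. Zfp706, a small protein with 1 finger known for promoting the exit of mouse embryonic stem cells from self-renewal, had 211, 73.5, 114, 53.9 and 54.3 RPM, highest at e12.5. Zfp292 had 78.9, 49.6, 114, 180 and 71.6 RPM, with its highest value at P7.

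Zfp644 was high at the first stages and lower later, with 112, 172, 18.4, 41.2 and 38.2 RPM. Zfp871, with 15 fingers, had 103, 136, 54.8, 54.8 and 8.06 RPM, lowest in the adult. Zfp106 had 76.0, 103, 42.5, 89.1 and 37.0 RPM, with no steady course.

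Zfp36 ran the other way. It encodes tristetraprolin, a CCCH zinc finger protein that binds AU-rich elements and brings about decay of cytokine mRNAs, and holds no C2H2 finger. Its CDS clusters had 36.1, 6.53, 59.7, 78.2 and 171 RPM, and the adult value was the highest of any member in that library. Zfp516 had 26.8, 52.2, 96.8, 119 and 33.1 RPM, with its highest value at P7.

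**Figure D3:**
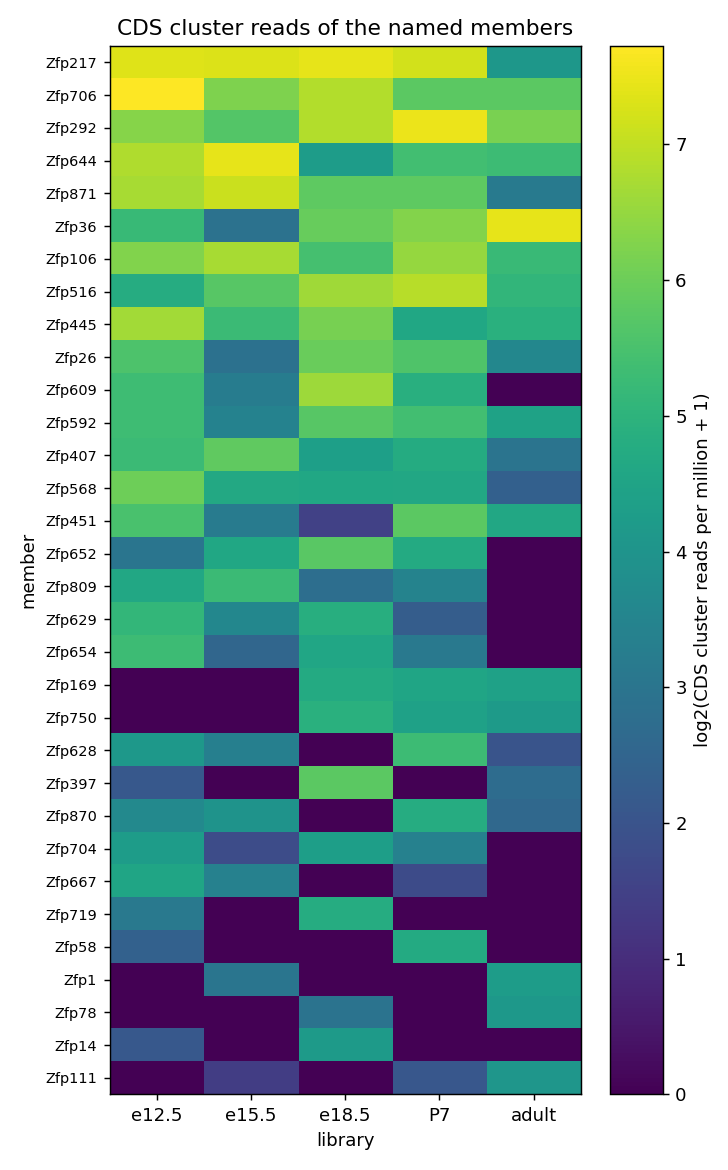
CDS cluster reads of 32 named members (rows) in the 5 libraries (columns), as log2 of RPM plus 1 (colour scale). Zfp217 is bright up to P7 and dim in the adult, Zfp36 is brightest in the adult, and 10 members, Zfp609, Zfp652, Zfp809, Zfp629, Zfp654, Zfp704, Zfp667, Zfp719, Zfp58 and Zfp14, are at 0 in the adult.

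A few single sites were listed at nearly every stage. The 5 CDS sites with most reads among those in at least 4 libraries all lay in one short stretch of Zfp706, and the foremost matched the miR-17 family (miR-17, miR-20a, miR-20b, miR-93, miR-106a and miR-106b) at codon 57. Its clusters held 197, 73.5, 96.8, 49.2 and 54.3 RPM, which was most or all of the CDS level of this gene in each library. The stretch is shown beside 4 sites of other members, which were chosen after their values were seen because a well-known miRNA matched them in 4 or 5 libraries. Letters of the seed match are in capitals, in transcript direction on GRCm38.
Zfp706 and miR-17, chr15:37001896-37001925, minus strand: accttcaagcaGCACTTTgagagcaagcac
Zfp106 and miR-126a-3p, chr2:120555265-120555294, minus strand: tctggtcactaTGGTACGagaacgaaaatg
Zfp217 and miR-16, chr2:170114536-170114565, minus strand: ggtggcgtcccTGCTGCTatggataaggtg
Zfp445 and miR-142a-3p, chr9:122852320-122852349, minus strand: ccagaggatccACACTACagagcaaccaca
Zfp367 and miR-122-5p, chr13:64145542-64145571, minus strand: caagggagaaaTCACTCCaggctcacaaaa

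The Zfp106 site, at the first codon of the coding sequence used, had 29.3, 21.4, 2.05, 38.8 and 8.65 RPM, against 0.5998%, 0.9499%, 1.25%, 1.28% and 5.05% of the miRNA reads for miR-126a-3p, an endothelial miRNA. The Zfp217 site had 39.1, 9.39, 2.30 and 19.5 RPM up to P7 and no listed read in the adult. The Zfp445 site, for the blood cell miRNA miR-142a-3p, had 23.3, 2.86, 26.9, 0 and 21.8 RPM, while this miRNA took 32.2%, 37.1%, 23.9%, 8.88% and 4.34% of the miRNA reads. The Zfp367 site had 4.31, 6.73, 2.30, 15.4 and 6.56 RPM. None of these sites had a steady course. Mature sequences (RefSeq, GRCm38.p6) follow, with the seed in capitals.
miR-17-5p: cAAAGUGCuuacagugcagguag
miR-126a-3p: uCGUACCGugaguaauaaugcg
miR-142a-3p: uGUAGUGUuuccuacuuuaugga

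Such sites were exceptions. Of 6948 distinct pairs of site and seed family, 5957 (85.7%) were listed in 1 library, 746 in 2, 175 in 3, 51 in 4 and 19 in all 5. No such count was made over all genes.

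The balance of CDS and 3′UTR was next compared with other genes. Of the members' clusters in mRNA, 57.3% were listed under CDS in the e12.5 library (708 of 1236, interval 54.5 to 60.01). The later embryonic libraries had 55.2% (276 of 500, interval 50.8 to 59.5) and 56.3% (271 of 481, interval 51.9 to 60.7). P7 had 61.3% (546 of 890, interval 58.1 to 64.5) and the adult 59.0% (226 of 383, interval 54.0 to 63.8). All genes had 61.8%, 63.4%, 64.4%, 66.1% and 73.3%, above the members' interval in each library. The gap was widest in the adult, where all genes had their highest CDS share while the members had theirs at P7.

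The 3′UTR shares mirrored these values. They were 44.2%, 46.4%, 44.1%, 41.5% and 42.6% in the members and 41.3%, 39.9%, 37.3%, 36.4% and 29.4% in all genes. A cluster can be listed under both regions, so the shares can add to more than the whole. Since a CDS entry was a condition of entry, genes under the same condition were set beside them. Over every Zfp gene with an entry the CDS shares were 57.1%, 54.8%, 54.8%, 60.4% and 57.9%, below those of the members by less than their intervals.

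**Figure D4:**
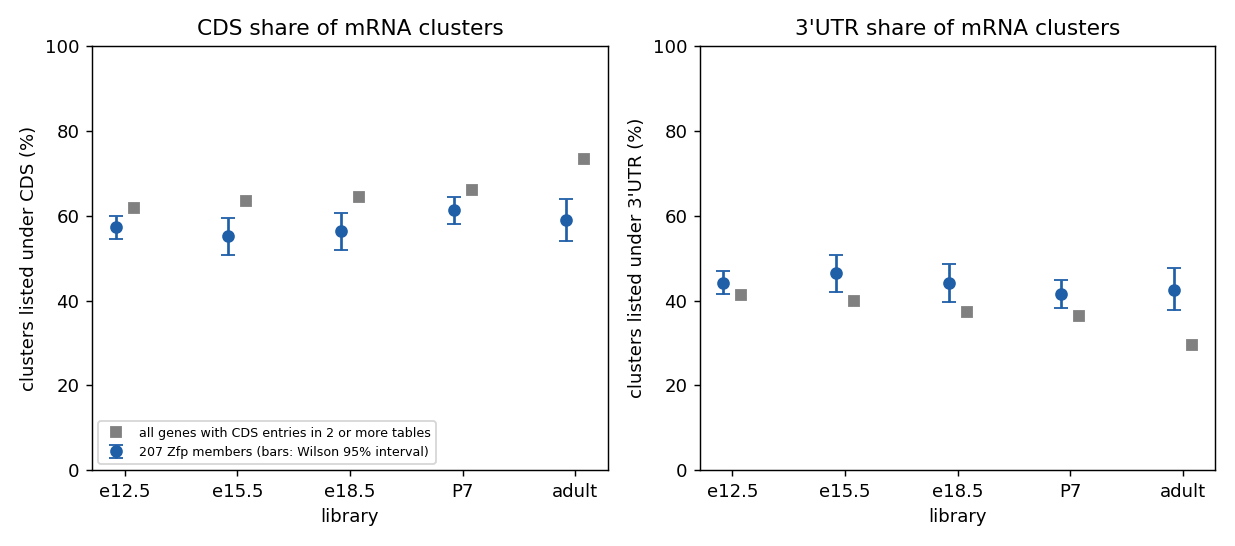
Share of mRNA clusters listed under CDS (left) and 3′UTR (right), in percent, by library, for the 207 members (circles with Wilson 95% intervals, counting error only) and all genes with CDS entries in 2 or more libraries (squares). The member CDS shares stay between 55.2% and 61.3% while those of all genes reach 73.3% in the adult.

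Per gene, 153 members had more distinct CDS clusters than 3′UTR clusters, 40 had fewer and 14 had equal numbers, and 54 had no 3′UTR cluster. Entry required CDS sites and no 3′UTR site, so an excess of CDS clusters per gene is in part built in. A count per gene over all genes was not made. The 3′UTR clusters numbered 1096 in all, of which 726 lay in the 37 members with 10 or more. Zfp652, a transcriptional repressor, had 57 in the 3′UTR and 13 in the CDS. Zfp451, a SUMO ligase, had 42 and 24, Zfp704 had 40 and 5, and Zfp568, a KRAB protein that represses a placental Igf2 transcript, had 39 and 14. Zfp217 was rich in both, with 28 and 32. By contrast Zfp445, Zfp628 and Zfp809 had no 3′UTR cluster.

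Site conservation scores, as deposited, were lower in the members' coding sites than in those of all genes. The median score was 0.780 against 0.981 at e12.5 and 0.811 against 0.940 in the adult, and it was lower in the members in the other 3 libraries too. In their 3′UTR sites the members had 0.309, 0.456, 0.155, 0.212 and 0.119, against 0.311, 0.539, 0.370, 0.200 and 0.284 in all genes, so they were higher at P7 and lower in the other 4 libraries, by little at e12.5.

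The members' part of all CDS reads was smallest in the adult. Members held 0.617%, 0.492%, 0.593%, 0.631% and 0.287% of the reads in CDS clusters from e12.5 to adult. Counted as clusters, the shares were 1.06%, 0.912%, 0.875%, 1.04% and 0.579%, of between 30273 and 66668 CDS clusters. The adult interval (0.509 to 0.660) lay below the intervals of the other 4 libraries.

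From e12.5 to adult, a CDS cluster was listed for 181 (87.4%), 131 (63.3%), 109 (52.7%), 167 (80.7%) and 115 (55.6%) of the members. The shares of all genes were 87.0%, 69.7%, 72.1%, 89.9% and 76.8%, so the members were level with them at e12.5 and fell behind most at e18.5 and in the adult. The median member had 6.12, 3.47, 1.54, 7.11 and 2.98 RPM in the CDS, and the median of all genes was 12.1, 8.57, 9.22, 14.2 and 12.2 RPM. Single clusters were less far apart, with a median of 26, 27, 15, 14 and 21 reads in the members and 32, 36, 18, 15 and 23 in all genes.

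Presence was also read by finger number. Of the 113 members with 10 or more fingers, 87.6%, 61.1%, 44.2%, 71.7% and 49.6% had a CDS cluster, and their median was 0 RPM at e18.5 and in the adult. Of the 45 with 0 to 4 fingers, 88.9%, 73.3%, 75.6%, 91.1% and 66.7% did. Of the 49 with 5 to 9 fingers, 85.7%, 59.2%, 51.0%, 91.8% and 59.2% did, so the order of the classes was not the same in every library. The shares of the classes lie close at e12.5 and furthest apart at e18.5.

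**Figure D5:**
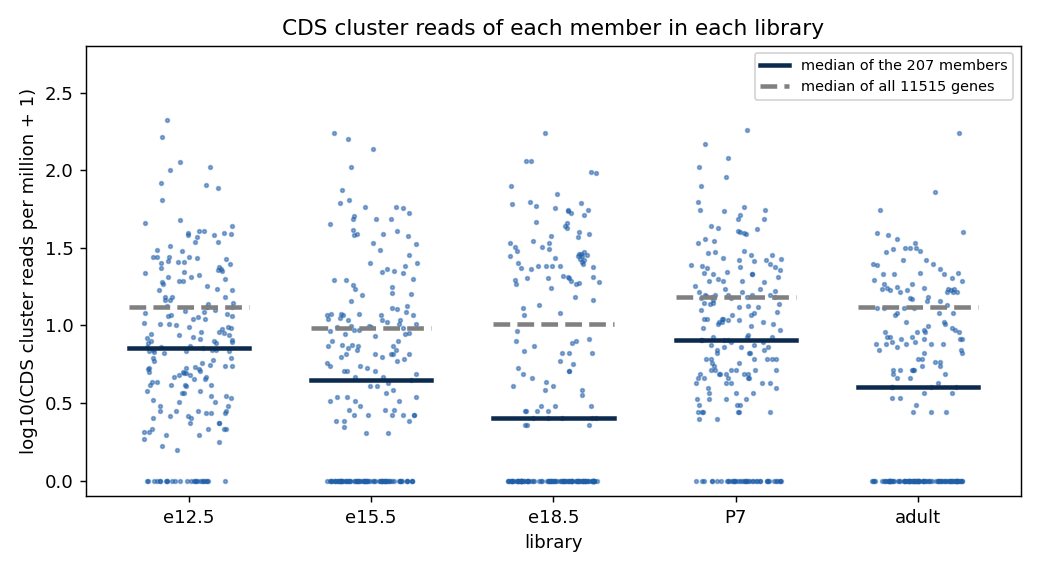
CDS cluster reads of each of the 207 members (points) in each library, as log10 of RPM plus 1, with the median of the members (solid bar) and of all 11515 genes (dashed bar). The member median lies below that of all genes in all 5 libraries, and in the adult it is 2.98 against 12.2.

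Between e12.5 and the adult, with log2 folds of RPM plus 1 for genes with at least 20 reads in 1 of the 2 libraries, 171 members passed the filter and 36 did not. Of the 171, 92 (53.8%) were at least 2-fold lower in the adult, where 38.4% of all 10527 genes past the filter were. Another 31 (18.1%) were at least 2-fold higher, against 34.5% of all genes. The median log2 fold was -1.39 in the members and -0.13 in all genes. Of the 92, 75 had 20 reads at e12.5 only and 64 had no listed adult read, and of the 4045 lower genes overall 2688 had 20 reads at e12.5 only. Most of the lower members thus passed the filter only through the library where they were high, and their number is a description and no support for a difference from other genes.

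Where 20 reads were required in both libraries, a filter added after the data were seen, 69 members were left. By its construction this filter drops members that fell below 20 adult reads, so its counts describe the remaining members only, as the first filter's counts are shaped by the members it let in. Of these 17 were lower (24.6%, against 22.02% of 6163 genes) and 15 higher (21.7%, against 36.7%), with a median log2 fold of 0.24 against 0.36 in all genes. The e12.5 library was the deepest and its table held 2 lists. With the first list alone 53 members were lower (43.8%, against 35.4% of all genes) and 49 higher (40.5%, against 46.3%), and with the second alone 85 were lower (52.5%, against 35.8%) and 25 higher (15.4%, against 35.9%).

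The members with the largest falls had no adult CDS read. Zfp609, a partner of the cohesin loader, had 39.3, 8.57, 94.7, 28.1 and 0 RPM, with its highest value at e18.5. At e12.5 Zfp654 had 38.6 RPM, Zfp629 had 33.7, Zfp809 had 24.02 and Zfp667 had 22.3. A cluster under 5 reads was not listed, so 0 stands for a value below the table's limit. Zfp609 had 31.4 RPM in the 3′UTR at e12.5 and no listed read there in the adult.

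The members with the largest rises had no e12.5 CDS read. Zfp169 had 0, 0, 25.3, 22.5 and 20.6 RPM, and Zfp750, an epidermal differentiation factor, had 0, 0, 29.2, 20.4 and 17.6 RPM. Both were listed from e18.5 on. In the adult Zfp1 had 18.499 RPM, Zfp78 had 16.4 and Zfp111 had 15.52, each with at most 6.94 RPM at any earlier stage. All of these adult values are low next to that of Zfp36.

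Among members measured on both sides, Zfp217 fell by 3.27 on the log2 scale and Zfp871 by 3.52, whereas Zfp36 was 2.22 higher. Over the alternative settings the log2 fold ran from -4.67 to -1.75 for Zfp217 and from -4.86 to -1.03 for Zfp871. When scaled by miRNA reads Zfp36 was 0.75 higher. Zfp106 (-1.02), Zfp26 (-1.98) and Zfp445 (-1.76) were lower in the adult, but with the first e12.5 list alone they were 0.36, 0.66 and 0.50 higher, and Zfp407 (-2.29) was 0.35 higher by its highest cluster. These are descriptions of 1 library against another.

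Reads in 3′UTR clusters were read for the same genes. A cluster listed under both regions counts in each, so these reads are not separate from the CDS entries used for the choice. Of 103 members past the filter, 64 (62.1%) were at least 2-fold lower in the adult than at e12.5, and 56.8% of all genes were. At least 2-fold higher were 12 (11.7%), against 21.9%. The median log2 fold was -1.77 in the members and -1.59 in all genes, so in the 3′UTR the members lay close to the background in the lower direction. Of 91 members measured in both regions, 31 were at least 2-fold lower in both (34.1%, against 32.1% of 7537 genes) and 4 higher in both (4.396%, against 16.2%). Another 3 were lower in the CDS and higher in the 3′UTR (3.30%, against 1.88%) and 8 the reverse (8.79%, against 8.49%). The share lower in both lies near the background. Clusters listed under both regions make part of this agreement by construction, as in Zfp326, with a log2 fold of -3.05 in each region.

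Zfp217 was lower in both regions (3′UTR level 194, 101, 223, 112 and 17.6 RPM, a log2 fold of -3.39). Zfp36 was higher in both, with 32.4, 19.8, 181, 79.1 and 132 RPM in the 3′UTR. Zfp654 had 403 CDS reads at e12.5 and none listed in the adult, but 11 and 35 reads in the 3′UTR, too few to rest a contrast on.

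From e18.5 to P7, across birth, the members lay near other genes. Of 131 members past the filter, 52 (39.7%) were at least 2-fold higher at P7, where 41.4% of all genes were, and 34 (26.0%) were lower, against 23.3%. The median log2 fold was 0.32, and 0.44 in all genes. Of the 52, 47 had 20 reads at P7 only. In the 3′UTR, 37 of 90 members (41.1%) were higher, against 41.6%, and 23 (25.6%) were lower, against 27.1%. These shares lie near the background. The sign of the median depended on the scaling and the read minimum, as it was -0.46 when scaled by miRNA reads and -0.24 with at least 50 reads, beside -0.37 and 0.03 in all genes. With 20 reads required in both libraries, 5 of 63 members were higher (7.94%, against 18.3% of 5428 genes) and 16 lower (25.4%, against 24.1%).

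The largest changes across birth were of members with no read on one side. Zfp628 went from 0 at e18.5 to 37.9 RPM at P7, Zfp870 from 0 to 26.4 RPM and Zfp58, whose CDS entries all named a second gene too, from 0 to 25.2 RPM. Zfp397 went from 54.02 RPM to 0, Zfp719 from 26.4 to 0 and Zfp14 from 17.4 to 0. Zfp628 and Zfp870 had been listed at e12.5, with 16.3 and 11.5 RPM, so that the gap at e18.5 was not a first appearance.

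Members were then read by known role, in groups put together after the values were seen. Of the guards of imprinting, Zfp445 had 99.5, 37.5, 69.1, 23.4 and 28.6 RPM in the CDS, and Zfp57, which binds methylated imprinting control regions, had 4.401, 0, 0, 6.81 and 7.46 RPM. The first was highest at e12.5 and the second at P7 and in the adult. Of the factors that act on RNA and ribosomes, Zfp598, a ubiquitin ligase at collided ribosomes, had 8.52 RPM at e12.5 and 25.4 RPM in the adult. Zfp622, which takes part in maturation of the large ribosomal subunit, had 20.95 and 20.9 RPM. Between these stages Zfp622 was not level, with a log2 fold of 2.89 from e18.5 to P7. Of the sequence-specific transcription factors, Zfp143 had 29.1, 29.8, 31.2, 2.07 and 4.48 RPM and Zfp148 had 10.5, 18.8, 32.8, 14.8 and 30.7 RPM.

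Zfp410, whose known target is the Chd4 gene, had 26.4, 33.1, 1.54, 2.67 and 4.77 RPM. Zfp207, a spindle assembly factor, had 17.03, 44.3, 41.2, 9.77 and 1.79 RPM. Both were highest before birth. Zfp592 and Zfp687, which form one chromatin complex, did not keep the same course. Zfp592 had 39.3, 9.79, 51.97, 40.6 and 20.9 RPM, and Zfp687 had 9.38, 47.5, 50.7, 56.6 and 20.3 RPM.

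At the threshold of the choice, Zfp458, Zfp820 and Zfp108 were just inside, each with 2 libraries and CDS read sums of 14, 19 and 20. Zfp341, Zfp579 and Zfp948 were just outside, each with 1 library and 242, 184 and 118 reads. More reads did not therefore mean a place among the members.

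Near-identical copies make some members uncertain. Of 6137 distinct 25-base windows around the members' CDS sites, 395 (6.44%) occurred letter for letter in the coding sequence of another gene, and in 22 members, among them Zfp108, Zfp433 and Zfp191, at least 50% of the windows did. How reads with several genome matches were counted is not given in the sources used here. Zfp217, Zfp292, Zfp706, Zfp106, Zfp445 and Zfp871 had no shared window, and of the members named for miR-181 Zfp110 had 20.5%, Zfp26 9.01%, Zfp266 8.16%, Zfp667 5.88% and Zfp961 5.71%, with Zfp869 between the first pair and none in Zfp41, Zfp62, Zfp809 and Zfp148. Entries naming another gene as well made 4.01% of the members' CDS entries, and in 6 members at least 50% of the entries.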

How the data were processed

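The authors deposited, for 1 liver library per stage, tables of clusters with their highest read number, a signal value that is not normalized, and with a conservation score and a folding energy score per site. The submitters' processing notes name Bowtie, mm9 and mm10, and all 14815 member sites checked matched GRCm38 (mm10). The 3 embryonic tables hold 2 lists each, which were pooled, so a cluster in both lists counts in each. The study's methods name biological replicates and its supplement a second e18.5 library, but neither labels nor tables say that the lists are such replicates, so each list alone was an alternative and not a replicate. The scaling by the study's totals used the total of the library named e18.5.

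RPM are cluster reads per 1000000 reads summed over the mRNA clusters of a table. Folds used a pseudocount of 1 RPM and at least 20 reads in 1 of the 2 libraries. Values past 2-fold were counted with no test, since the labels used here give no stage a second sample. Coding sequences came from the GENCODE vM21 transcripts named in the tables, and fingers were found by cysteine and histidine spacing. Python 3.11.15, pandas 2.3.3, numpy 2.4.6, scipy 1.17.1 and matplotlib 3.10.9 were used, and the functions were tested on simulated data.

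The members and the gene lists were chosen with earlier results of these data known. Genes were named by rule: most CDS clusters (8), highest mean RPM (8), largest folds each way to the adult (5) and to P7 (3), most 3′UTR clusters (5), nearest the threshold (3 each side), the 10 seed families with most members, overall and among the 100 most read miRNAs of a library, and the 5 most read sites in at least 4 libraries. Alternatives changed the read minimum, seed length, lists, scaling, pseudocount, fold, finger motif and member rule. The filter on both libraries, a scaling without the highest cluster, the 3′UTR folds and the shares without Zfp706 were added after the data were seen.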

Additional observations from a re-analysis of the deposited data

How the results depend on the processing

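No paired analysis was possible because the labels give 1 library per stage and no replicate numbers. Reads of 5 were the lowest listed, which limits all low members, and leaving out a library was not possible within a stage. In the embryonic tables the 2 lists shared few member CDS clusters (33 of 111 and 593 at e12.5, 4 of 24 and 251 at e15.5, 16 of 132 and 136 at e18.5). Of the recomputed counts and shares, 101 stayed within their limits and 27 moved. The members' median log2 fold changed sign with 20 reads in both libraries for the adult (-1.39 to 0.24), and for P7 (0.32 as reported) when scaled by miRNA reads (-0.46), scaled to the median over genes (-0.12), with at least 50 reads (-0.24) and with 20 reads in both (-0.25). Named members with no read in 1 library cannot change direction under these settings, so their 166 recomputed folds bear on nothing. For 13 named members with 20 reads in both libraries, 137 of 156 recomputed folds of adult over e12.5 kept their direction and side of 2-fold, 15 moved across 2-fold and 4 reversed (with the first list, Zfp106 at 0.36, Zfp26 at 0.66 and Zfp445 at 0.50, and with the highest cluster, Zfp407 at 0.35). The causes were not tested.

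Requiring all 5 libraries left 52 members. The first list alone gave a CDS share of 47.7% at e12.5 and 50% at e15.5. Counting clusters in place of reads gave members 1.06%, 0.912%, 1.04% and 0.579% of CDS clusters at e12.5, e15.5, P7 and adult. For the adult against e12.5, members at least 2-fold higher numbered 31 as reported (18.1%, against 34.5% of all genes), 14 when scaled by miRNA reads (8.19%, 20.97%), 15 at 4-fold (8.77%, 23.8%), 17 with at least 50 reads (13.8%, 31.6%), 49 with the first list (40.5%, 46.3%), 15 with 20 reads in both libraries (21.7%, 36.7%) and 12 in the 3′UTR (11.7%, 21.9%), and members lower numbered 92 as reported (53.8%, 38.4%), 53 with the first list (43.8%, 35.4%) and 17 with 20 reads in both (24.6%, 22.02%). For P7 against e18.5, higher members numbered 52 as reported (39.7%, 41.4%), 93 with no minimum (51.4%, 44.9%), 25 with at least 50 reads (27.5%, 32.4%) and 5 with 20 reads in both (7.94%, 18.3%), and lower members 34 as reported (26.0%, 23.3%), 52 when scaled by miRNA reads (39.7%, 38.3%), 19 at 4-fold (14.5%, 10.4%), 10 with the second list (8.85%, 12.7%) and 16 with 20 reads in both (25.4%, 24.1%). Scaling by miRNA reads moved the median log2 fold of all genes from -0.13 to -1.49 for the adult and from 0.44 to -0.37 for P7, and that of the members from -1.39 to -2.29 for the adult. The share of sites in repeats was 37.3% with variable spacing (36.5% of bases), 24.9% without the linker (26.0%) and 37.8% for the 100 most read miRNAs (35.7%). miR-181 had 34 members with listed sites of at least 7 bases and 90 distinct sites in place of 53 members.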

Other observations

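Partners of the KRAB zinc finger proteins were read from a list of 14 cofactor genes, among them Trim28, Setdb1 and the heterochromatin proteins. All 14 had CDS entries in at least 2 libraries and passed the read minimum. None was at least 2-fold higher in the adult than at e12.5 in CDS reads and 10 were lower, with a median log2 fold of -1.41, against -0.13 in all 10527 genes past the filter, of which 34.5% were higher and 38.4% lower. With 20 reads in both libraries, 36.7% of 6163 genes were higher and 22.0% lower. Of the cofactors 10 were left, none higher and 6 lower, with a median of -1.28, beside 0.24 in the Zfp members and 0.36 in all genes. Their summed CDS levels, from e12.5 to adult, were 1369, 1333, 784, 961 and 380.4 RPM.

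Of 10 regulators of blood formation, a list with Gata1, Klf1 and Gfi1b, 9 had CDS entries in at least 2 libraries and 8 passed the minimum. All 8 were at least 2-fold lower in the adult, with a median log2 fold of -4.80, against the same background. With 20 reads in both libraries, where 36.7% of 6163 genes were higher and 22.0% lower, 3 were left, all lower, with a median of -2.31. Their summed CDS level went from 774 RPM at e12.5 to 44.2 RPM in the adult. Among relatives of the members, 11 Zscan and Zkscan genes past the filter had a median log2 fold of -0.28, with 2 higher and 3 lower. The 33 Zbtb genes past it had -0.83, with 9 higher and 14 lower. The 17 genes of the Klf family with Sp1 to Sp4 had -0.21, with 5 higher and 7 lower.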
